A study of Mus musculus with 16 samples.

Results

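The protein part of the cytosolic ribosome was described here through the transcripts of 81 genes in epithelial cells of the mouse caecum. A gene was taken where its symbol was Rpl or Rps followed by a number, with or without a letter or copy number, or was Rplp0, Rplp1, Rplp2 or Rpsa, and where its mean level over the 9 RNA libraries was at least 10 TPM, a unit of relative abundance that corrects for transcript length and library total. The kinase genes with Rps6k symbols were left out. Of 24091 genes in the table, 85 symbols matched and 81 passed the level, 48 of the large and 33 of the small subunit. The rule itself used symbol and mean level and no difference between groups. The list was, however, chosen with earlier results of these data known. The lowest of those taken were Rps4l at 37.1, Rpl7l1 at 57.4 and Rps15a at 71.0 TPM, and those left out were Rpl32l at 0.628, Rpl39l at 0.115 and Rpl3l at 0.0279 TPM and Rpl10l, which was listed at 0.

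The cells came from C57BL/6 mice, a common inbred strain, whose drinking water held Splenda, a sweetener, at 10 g/L in all groups. The vehicle group had no ampicillin and a mock gavage of 25% glycerol, the ampicillin group had the antibiotic at 1 g/L with the same mock gavage, and the tributyrin group had ampicillin at 1 g/L with tributyrin by gavage. Drinking lasted 7 days and tissue was taken 6 hours after the gavage. Ampicillin is a broad antibiotic that depletes gut bacteria, which make butyrate from fibre, and tributyrin is an ester of glycerol that gut lipases split to free butyrate. The design asks what loss of bacteria does to these cells and what tributyrin does in mice given the antibiotic. No group had tributyrin without ampicillin, the labels give neither the dose nor the carrier of the tributyrin, and age and sex are not stated. Each group held 3 libraries, called vehicle, ampicillin and tributyrin libraries below by their numbers in the labels. Whether each library is a separate animal is not stated, and the p-values below therefore describe the spread of these 9 libraries, which may be technical.

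Ribosomal proteins join with ribosomal RNA to form the small subunit, which reads the mRNA, and the large subunit, which joins amino acids. They are needed in nearly equal numbers, and the fast renewing epithelium of the gut is known for a high demand for them. Their mRNAs start with a C and a run of pyrimidines, the terminal oligopyrimidine tract, through which the kinase complex mTORC1 and the RNA-binding protein LARP1 set how much of the mRNA is translated. Transcription factors of the MYC and ETS families are known to act on their promoters.

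The starts of 8 genes are shown because the results below turn on them. Rplp0, Rps2, Rps10 and Rpl7l1 were called in a comparison between groups that differ in 1 treatment, Rps18 is among those called between tributyrin and vehicle, Rps6 is the best known target of mTORC1 signalling on the ribosome, and Rpl14 and Rpl31 have near copies in the table. Each line holds 30 bases before and 20 bases from the annotated start of transcription, 5′ to 3′ on the strand of the gene, with runs of at least 8 C or T in capitals, from RefSeq's promoters of build GRCm38.p6.
Rplp0: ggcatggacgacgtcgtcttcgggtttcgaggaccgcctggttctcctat
Rps2: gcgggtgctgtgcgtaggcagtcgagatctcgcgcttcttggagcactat
Rps10: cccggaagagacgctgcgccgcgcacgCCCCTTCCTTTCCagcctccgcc
Rpl7l1: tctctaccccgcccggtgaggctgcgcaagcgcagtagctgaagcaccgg
Rps18: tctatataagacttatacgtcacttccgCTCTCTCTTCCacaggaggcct
Rps6: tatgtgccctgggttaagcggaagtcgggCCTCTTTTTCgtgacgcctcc
Rpl14: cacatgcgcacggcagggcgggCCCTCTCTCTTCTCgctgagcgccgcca
Rpl31: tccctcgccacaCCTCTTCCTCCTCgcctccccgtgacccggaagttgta
In the order shown they lie at chr5:115559437-115559486 on the plus strand, chr17:24720033-24720082 on the plus strand, chr17:27635225-27635274 on the minus strand and chr17:46782637-46782686 on the minus strand. The others lie at chr17:33955646-33955695 on the minus strand, chr4:86857348-86857397 on the minus strand, chr9:120571487-120571536 on the plus strand and chr1:39367821-39367870 on the plus strand. The Rps2 start shown lies inside the span that the annotation gives for the gene. Rps10, Rps18, Rps6, Rpl14 and Rpl31 hold such a run, and Rplp0, Rps2 and Rpl7l1 hold none in this window.

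Promoters were given for 60 of the 81 genes. A run of at least 8 C or T on the strand of the gene lay in that window in 31 of them (51.7%), against 22.9% of 27025 genes in the same table. The letters CGGAAG, the core that ETS factors bind, were found on either strand within 250 bases before and 50 bases after the start in 41 of them (68.3%), against 18.8% of all. A match is a match of letters, not a measured site. Genes with and without the run had close medians. The median log2 difference was 0.051 with and 0.064 without it between ampicillin and vehicle, 0.10 and 0.10 between tributyrin and ampicillin, and 0.14 and 0.13 between tributyrin and vehicle.

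The 9 libraries summed to between 999833 and 999866 TPM, which leaves the depth of sequencing unknown, and no pair held identical values. Between 17242 and 17722 genes were above 0 in a library. The 11 epithelial markers summed to 17168 to 19414 TPM in the vehicle, 14893 to 15988 in the ampicillin and 16306 to 16629 in the tributyrin libraries. Markers of other cell types were lower in sum: the 4 erythroid markers reached at most 134 TPM, the 12 T cell markers 92.5, the 9 pancreatic acinar markers, 4 of them listed at 0 throughout, 88.7, the 12 myeloid markers 82.9, the 7 B and plasma cell markers 2.94, the 10 fibroblast and muscle markers 6.18 and the 6 endothelial markers 4.48. In bulk RNA, fewer cells of a type and less RNA per cell cannot be told apart.

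Ribosomal protein mRNAs were abundant in these cells. The median of the 81 mean levels was 1774 TPM, and 64 of the 81 were at 1000 TPM or more. The 5 highest held 19.1% of the TPM of all 81. Rpl41, which encodes the smallest protein of the ribosome, was highest at 10585 TPM, followed by Rps28 at 6566, the stalk gene Rplp1 at 5209, Rps26 at 4521 and Rps27 at 4491. Rpl41 was 286-fold above Rps4l, the lowest. TPM divides by transcript length, so these levels can be set side by side, but short transcripts such as Rpl41 are the least certain. The order was not resolved throughout: Rps26 at 4438, 3880.2 and 4372 TPM and Rps27 at 4401, 4141 and 4043 TPM overlapped within the vehicle group. The values of a gene were close in the 9 libraries, with a median ratio of 1.27 between the highest and the lowest library, and 76 of the 81 stayed under 1.5, against 59.7% of the 12155 genes tested.

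**Figure D1:**
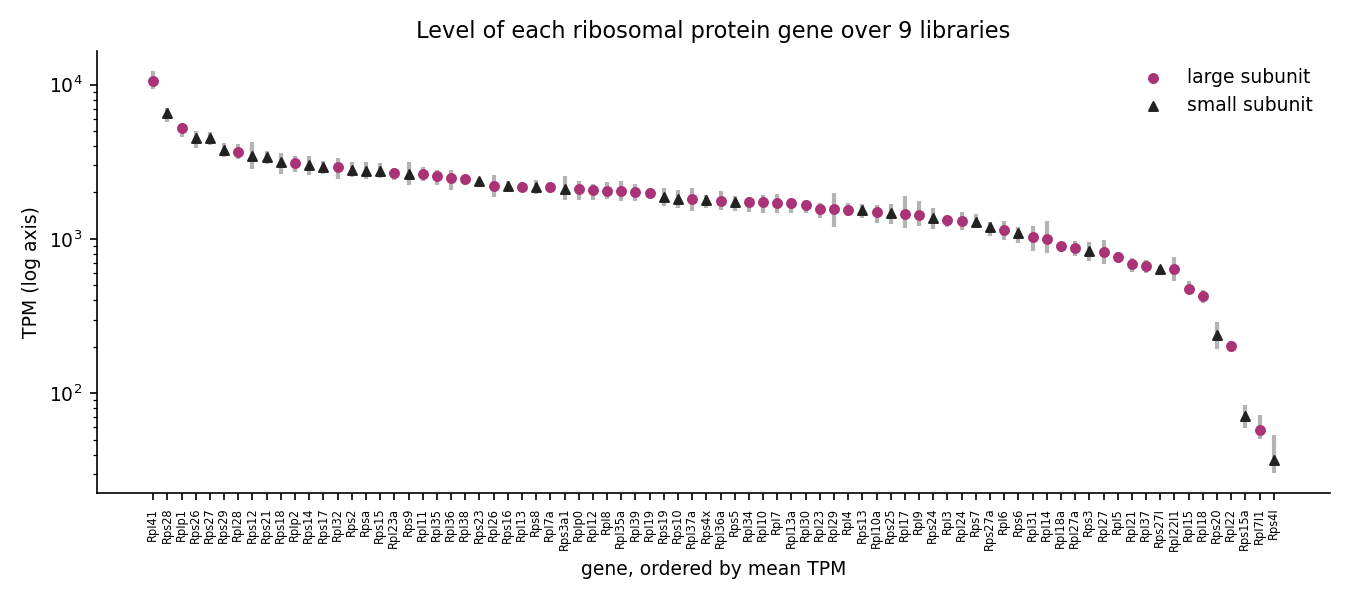
Mean TPM over 9 libraries (log axis) of 80 of the 81 ribosomal protein genes in order of level, with grey bars from the lowest to the highest library, circles for the large and triangles for the small subunit. Most genes lie between 1000 TPM and the 6566 TPM of Rps28, while Rps20, Rpl22, Rps15a, Rpl7l1 and Rps4l lie well below.

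The summed level gives the share of all TPM, short non-coding RNA included, that fell on these genes. The 81 genes took 16.4, 14.6 and 16.03% of all TPM in vehicle libraries 1 to 3, 15.6, 16.7 and 16.6% in ampicillin libraries 1 to 3 and 16.9, 17.4 and 17.6% in tributyrin libraries 1 to 3. The 3 tributyrin libraries lay above all 6 others, vehicle library 2 was lowest, and the vehicle and ampicillin libraries overlapped. The group means were 15.7 ± 0.921%, 16.3 ± 0.595% and 17.3 ± 0.362% (SD, n = 3 each), and no p is given for a sum over genes chosen as a list. The tributyrin libraries no longer stood apart once each library was scaled by its median of ratios, a factor that sets the typical gene equal across libraries. The scaled sums, as a percentage of the nominal library total, were 16.9, 14.9 and 16.4%, 16.1, 16.7 and 16.6% and 15.8, 16.2 and 17.7% in the same order. Their means were 16.1 ± 1.04%, 16.5 ± 0.288% and 16.6 ± 0.972% (SD, n = 3 each). The size factors behind this were 0.968, 0.981 and 0.977 in the vehicle, 0.969, 1.00 and 1.00 in the ampicillin and 1.07, 1.07 and 0.997 in the tributyrin libraries. Which of the scales is nearer to the amount of mRNA per cell cannot be told from relative values.

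**Figure D2:**
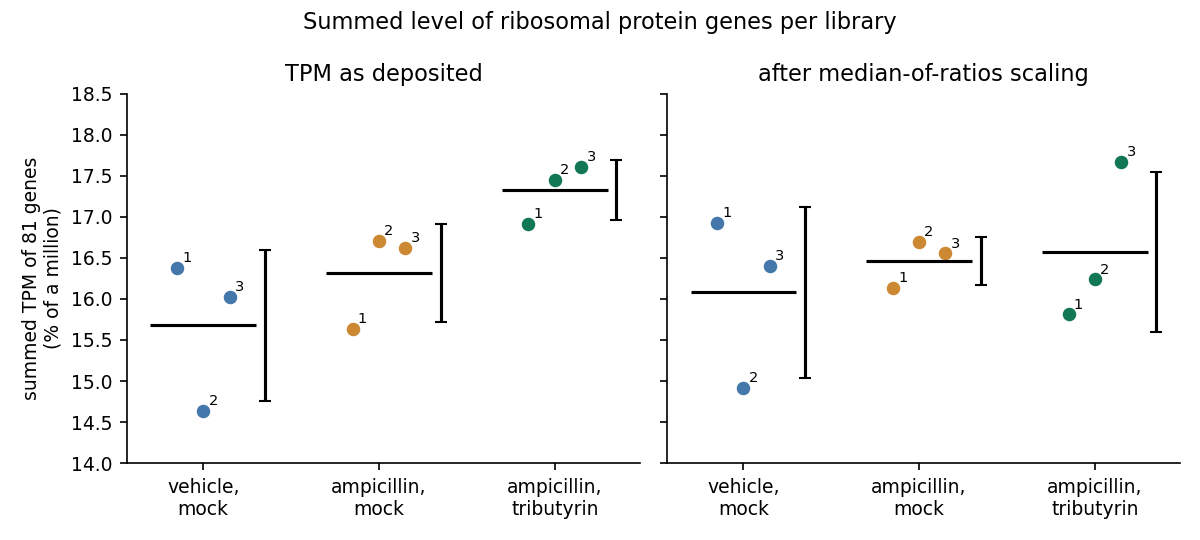
Summed TPM of the 81 genes as a percentage of the nominal library total, per library (points, with the library number), as deposited on the left and after median-of-ratios scaling on the right. Horizontal lines are group means and bars at the side are 1 SD (n = 3). As deposited, the tributyrin libraries lie at 16.9, 17.4 and 17.6%, above the others, and after scaling the groups overlap. The vertical axis does not start at 0.

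The balance of the subunits was nearly the same in all groups. The ratio of summed TPM of large to small subunit genes was 1.22 ± 0.00920 in vehicle, 1.22 ± 0.0100 in ampicillin and 1.23 ± 0.00305 in tributyrin libraries (SD, n = 3 each), and ranged from 1.21 to 1.24 over the 9. Entries for short RNA, such as small nucleolar RNA, were highest where the ribosomal protein share was lowest. They took 4.19, 6.32 and 4.65% of TPM in the vehicle, 6.02, 3.32 and 3.57% in the ampicillin and 3.31, 2.84 and 3.07% in the tributyrin libraries. Vehicle library 2 and ampicillin library 1, the highest in short RNA, were the lowest in ribosomal protein mRNA. With the short entries left out and TPM rescaled, the shares were 17.1, 15.6 and 16.8%, 16.6, 17.3 and 17.2% and 17.5, 17.96 and 18.2%, and the tributyrin libraries again lay above the 6 others. Single libraries weighed on single genes too: vehicle library 2 was the lowest of the 9 for 54 of the 81 genes, and tributyrin libraries 2 and 3 were the highest for 33 and 39.

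Ampicillin against vehicle gave few calls among the ribosomal protein mRNAs. Of the 81, 1 passed the test as higher and 0 as lower (limma on log2(TPM + 1), Benjamini-Hochberg adjusted p under 0.05 over 12155 genes), where 11% of all genes tested were called higher and 10.2% lower. At an unadjusted p under 0.05 there were 9. No share over all genes is given for that count, and it cannot lie below the share called. The median log2 difference was 0.062 over the 81 and 0.024 over all genes tested, with 62 of the 81 above 0 and 19 below. After scaling 1 rose and 0 fell (10.2% and 11.7% over all genes), and the median was 0.039 against 0.0025. The 95% interval of the log2 difference lay within 0.5 of 0 for 78 of the 81, against 74.0% of all genes tested.

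The gene that rose was Rplp0 (chromosome 5, 115559467 to 115563729 of GRCm38.p6), the protein that anchors the stalk of the large subunit, to which elongation factors are recruited. It stood at 1929, 1777 and 1853 TPM in vehicle libraries 1 to 3, at 2189, 2233 and 2109 in ampicillin libraries 1 to 3 and at 2239.8, 2381 and 2173 in tributyrin libraries 1 to 3. All 3 ampicillin libraries were above all 3 vehicle libraries, and the tributyrin libraries overlapped the ampicillin ones. The group means were 1853 ± 76.4, 2177 ± 62.9 and 2264 ± 106 TPM (SD, n = 3 each). The log2 difference between ampicillin and vehicle was 0.23 ± 0.054 (SE, adjusted p = 0.0164, limma), and 0.21 after scaling (adjusted p = 0.0319). Over 22 alternative settings its adjusted p ran from 0.00499 to 0.0790, and it passed in 18. The call was lost without ampicillin library 1 (adjusted p = 0.0524) and without ampicillin library 2 (adjusted p = 0.0694). With 1 library left out, the number of the 81 called higher was 0 without ampicillin library 2 and 2 without vehicle library 1 or ampicillin library 1, and Rpsa was called lower without vehicle library 2.

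The partners of Rplp0 on the stalk did not pass. Rplp1 had 4846 ± 267 TPM in the vehicle and 5298 ± 199 in the ampicillin libraries (SD, n = 3 each), a log2 difference of 0.13 with adjusted p = 0.145. Rplp2 had 3136 ± 273 and 2904 ± 183 TPM, a log2 difference of -0.11 with adjusted p = 0.399. Ampicillin libraries lay wholly above vehicle libraries for 8 of the 81 genes, where the share over all genes was 22.6%, and wholly below for 0 (share over all 18.2%). After scaling 8 lay wholly above (share over all 20.2%). The 8 as deposited were Rps28, Rplp1, Rps18, Rplp0, Rpl30, Rpl29, Rps25 and Rpl3, named after their values were seen. The largest log2 difference of the 81, 0.29 ± 0.12 (SE) for Rpl29, did not pass (adjusted p = 0.143). The lowest, -0.25 ± 0.17 (SE) for Rps4l, did not pass either (adjusted p = 0.341), and vehicle library 1 held its highest value. Beside this, 7 of 11 epithelial markers and 5 of 14 stem cell markers fell with ampicillin and none of either list rose. Of 10 colonocyte markers 2 rose and 4 fell, and of 8 goblet cell markers 0 rose and 2 fell. Over all genes tested 11% were called higher and 10.2% lower. These lists are short. The part of these markers in the ribosomal protein values was not tested.

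Tributyrin against mock gavage among ampicillin mice gave small upward differences as deposited. Of the 81 genes, 3 rose and 0 fell, with 15.6% of all genes tested called higher and 7.54% lower. An unadjusted p under 0.05 was reached by 15, and no share over all genes is given for such counts, here or after scaling. The median log2 difference was 0.10 over the 81 against 0.049 over all genes tested, and 74 of the 81 were above 0. After scaling 0 rose and 0 fell, 2 had an unadjusted p under 0.05, the median was 0.020 against -0.020 over all genes, and 49 were above 0 and 32 below. The same scaling turned the calls over all genes from 1902 higher and 917 lower to 1324 higher and 1728 lower (10.9% and 14.2% of those tested).

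Of the 3 genes that rose, Rps2 and Rps10 belong to the small subunit, and Rpl7l1 was counted with the large one by its symbol. Rpl7l1 (chromosome 17, 46773907 to 46782656) encodes a relative of Rpl7 found on precursors of the large subunit, and stood at 51.4, 54.8 and 50.3 TPM in vehicle libraries 1 to 3, at 57.4, 53.0 and 50.6 in ampicillin libraries 1 to 3 and at 65.8, 72.6 and 60.3 in tributyrin libraries 1 to 3. The 3 tributyrin libraries were above all others, with tributyrin library 2 highest. The means were 53.7 ± 3.49 TPM with ampicillin and 66.2 ± 6.18 with tributyrin (SD, n = 3 each), a log2 difference of 0.30 ± 0.077 (SE, adjusted p = 0.0260, limma) that was 0.22 after scaling (adjusted p = 0.0543). Its adjusted p ran from 0.00520 to 0.0815 over the alternatives, and it passed in 15 of 22.

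Rps2 (chromosome 17, 24718121 to 24721927) encodes a protein near the channel by which mRNA enters the small subunit, and stood at 2859, 2500.3 and 2827 TPM in vehicle libraries 1 to 3, at 2533, 2603 and 2589 in ampicillin libraries 1 to 3 and at 2978, 2966 and 3156 in tributyrin libraries 1 to 3. The tributyrin libraries were above both other groups, and the ampicillin libraries lay within the range of the vehicle ones. The means were 2575 ± 37.4 TPM with ampicillin and 3033 ± 107 with tributyrin (SD, n = 3 each). The log2 difference was 0.24 ± 0.061 (SE, adjusted p = 0.0255, limma), and 0.16 after scaling (adjusted p = 0.167). Over the alternatives its adjusted p ran from 0.00664 to 0.167, and it passed in 12.

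Rps10 (chromosome 17, 27630415 to 27635244), a small subunit protein that is marked with ubiquitin on stalled ribosomes, stood at 1771, 1592 and 1797 TPM in vehicle libraries 1 to 3, at 1698, 1757 and 1786 in ampicillin libraries 1 to 3 and at 1936, 2077 and 1962 in tributyrin libraries 1 to 3. The tributyrin libraries were again above the other 6, and the vehicle and ampicillin libraries overlapped. The log2 difference between tributyrin and ampicillin was 0.19 ± 0.059 (SE, adjusted p = 0.0493, limma), and 0.11 after scaling (adjusted p = 0.236). It passed in 6 of the 22 alternatives, with adjusted p from 0.0178 to 0.236.

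The number of calls changed when 1 library was left out, also one outside this comparison. Without ampicillin library 2, tributyrin library 1 or tributyrin library 2 none of the 81 genes was called higher. There was 1 without ampicillin library 1, ampicillin library 3 or tributyrin library 3, and 2, 4 and 2 without vehicle libraries 1 to 3. Rps10 kept its log2 difference of 0.19 without vehicle library 1, with adjusted p = 0.0627 (limma). Fewer libraries set the spread in such fits, and no share over all genes is given for them. Tributyrin libraries lay wholly above ampicillin libraries for 30 of the 81 genes as deposited, where the share over all genes was 27.3%, and wholly below for 0 (15.3% over all). After scaling they lay wholly above for 3 (share over all 19.8%) and wholly below for 2 (share over all 24.1%). The gene with the highest log2 difference, Rpl14 at 0.30 ± 0.12 (SE, adjusted p = 0.112), did not pass and varied strongly within groups. The 95% interval lay within 0.5 of 0 for 78 of the 81 and for 73.3% of all genes.

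The comparison of tributyrin with vehicle, which differs in both treatments and shares its libraries with the other comparisons, gave the most calls. Of the 81 genes, 16 rose and 0 fell, 9 of the large and 7 of the small subunit. That is 19.8% of the 81, where 19.1% of all genes tested were called higher, so the share called was near the background. The share called lower over all genes was 9.21%. An unadjusted p under 0.05 was found for 28 of the 81, again with no share over all genes, here or after scaling. The median log2 difference was 0.14 against 0.078 over all genes, with 79 of the 81 above 0. After scaling 4 rose and 0 fell, with 8 at an unadjusted p under 0.05, a median of 0.035 against -0.014, and 60 above 0. Over all genes scaling turned 2325 higher and 1119 lower calls into 1378 higher and 1971 lower (11.3% and 16.2% of those tested).

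Of the small subunit, Rps15a, Rps24 and Rps18 led. Rps15a (chromosome 7, 118104374 to 118116147) stood at 64.5, 59.2 and 63.0 TPM in vehicle libraries 1 to 3, at 62.6, 70.0 and 76.7 in ampicillin libraries 1 to 3 and at 78.4, 83.4 and 80.8 in tributyrin libraries 1 to 3. The tributyrin libraries were above all others, and the ampicillin libraries overlapped the vehicle ones. Its means were 62.2 ± 2.73 TPM with vehicle and 80.9 ± 2.51 with tributyrin (SD, n = 3 each), a log2 difference of 0.37 ± 0.073 (SE, adjusted p = 0.00741, limma), and of 0.27 after scaling (adjusted p = 0.0238). Rps24 (chromosome 14, 24490678 to 24496960), one of the genes mutated in Diamond-Blackfan anaemia, stood at 1258, 1153 and 1226 TPM in vehicle libraries 1 to 3, at 1239.6, 1402 and 1452 in ampicillin libraries 1 to 3 and at 1482, 1578 and 1579 in tributyrin libraries 1 to 3. The tributyrin and vehicle libraries did not overlap. Its log2 difference was 0.35 ± 0.068 (SE, adjusted p = 0.00698, limma), and 0.25 after scaling (adjusted p = 0.0357). Rps18, a protein of the head of the small subunit that touches the large one, stood at 2961, 2618 and 2929 TPM in vehicle libraries 1 to 3, at 3004, 3242 and 3251 in ampicillin libraries 1 to 3 and at 3349, 3554 and 3581 in tributyrin libraries 1 to 3. Its groups stepped up without overlap from vehicle to ampicillin to tributyrin. Its log2 difference between tributyrin and vehicle was 0.30 ± 0.064 (SE, adjusted p = 0.00999), and 0.20 after scaling (adjusted p = 0.0758).

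Among the called genes of the large subunit, Rpl7l1, Rpl7 and Rplp0 had the largest differences, while Rpl14 at 0.34 ± 0.12 (SE, adjusted p = 0.0770) and Rpl29 at 0.33 ± 0.12 (SE, adjusted p = 0.0773) did not pass. Rpl7 stood at 1514, 1469 and 1592 TPM in vehicle libraries 1 to 3, at 1581, 1715 and 1789 in ampicillin libraries 1 to 3 and at 1816, 1861 and 1959.7 in tributyrin libraries 1 to 3. All tributyrin libraries were above both other groups, which overlapped where vehicle library 3 exceeded ampicillin library 1. The means were 1525 ± 62.3, 1695 ± 105 and 1879 ± 73.5 TPM (SD, n = 3 each), with a log2 difference between tributyrin and vehicle of 0.30 ± 0.060 (SE, adjusted p = 0.00805, limma) and 0.20 after scaling (adjusted p = 0.0680). Rpl7l1 differed by 0.33 (adjusted p = 0.0140) and Rplp0 by 0.29 (adjusted p = 0.00588). The other 10 that rose were Rps25, Rpl10, Rps26, Rps10, Rpl35, Rpl21, Rps4x, Rplp1, Rpl23a and Rpl3, with log2 differences from 0.15 to 0.26. After scaling, those still called were Rps15a, Rps24, Rpl7l1 and Rplp0, where Rpl7l1 had 0.23 (adjusted p = 0.0405) and Rplp0 0.19 (adjusted p = 0.0409).

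Many of these calls were lost when 1 library was left out. There were 7 without vehicle library 2 and 7 without tributyrin library 2, and 8 without tributyrin library 1. There were 9 without vehicle library 3, 10 without ampicillin library 2, 12 without ampicillin library 3 and 13 without each other one. Ampicillin library 2 is outside this comparison, and without it Rps26 kept its log2 difference of 0.22 (adjusted p = 0.0609, limma). Fewer libraries set the spread in these fits too, and no share over all genes is given for them. Rps15a passed in 22 and Rpl7l1 in 22 of 22 alternatives, Rps24, Rpl7 and Rplp0 in 21 each and Rps18 in 19. Rpl3, which forms part of the peptidyl transferase centre, passed in 8 and Rplp1 in 6. Tributyrin libraries lay wholly above vehicle libraries for 38 of the 81 genes, where the share over all genes was 28.5%, and wholly below for 0 (13.2% over all). After scaling they lay wholly above for 8, with 18.3% over all. The 95% interval lay within 0.5 of 0 for 73 of the 81, against 71.1% of all genes.

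**Figure D3:**
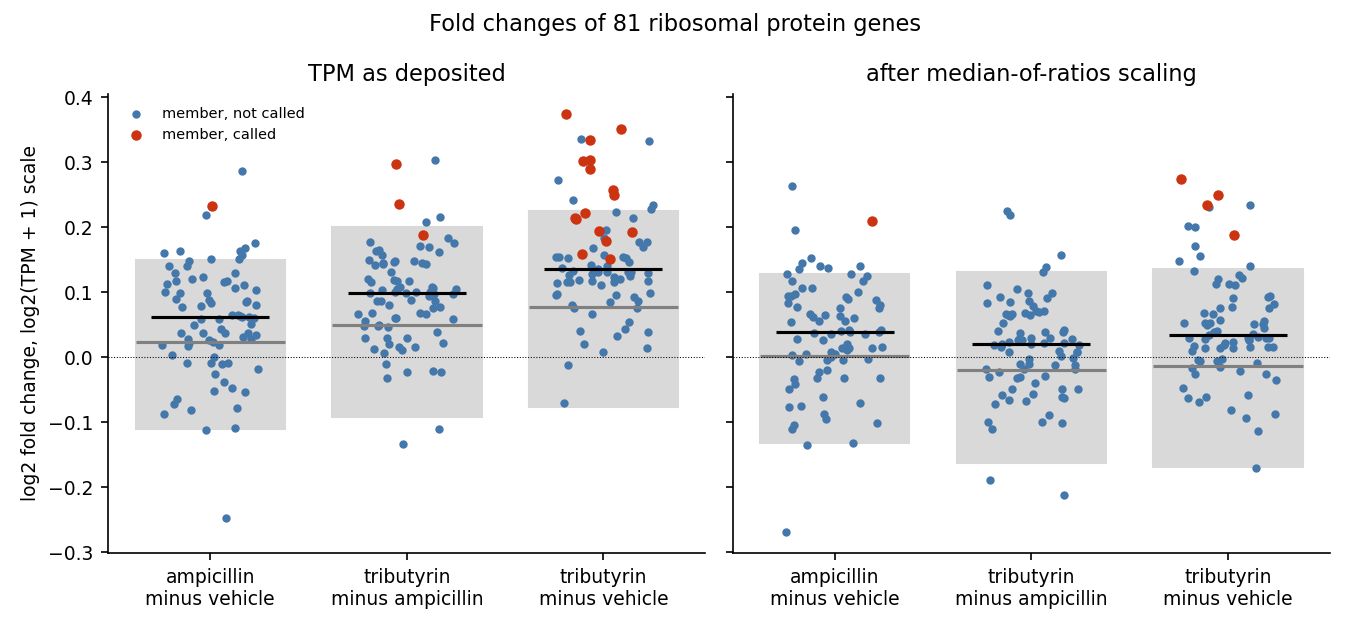
Log2 fold changes on the log2(TPM + 1) scale of the 81 genes (points) in each comparison, as deposited on the left and after median-of-ratios scaling on the right, with genes called in limma in red. Black lines are medians of the 81, grey lines medians and grey boxes the quartiles of all genes tested. As deposited, 1, 3 and 16 genes are called, and after scaling 1, 0 and 4.

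Markers of some other cell types moved with the groups. The 4 listed erythroid markers summed to 94.4 to 134 TPM in the tributyrin libraries. They summed to 8.35 to 25.4 in the vehicle and 13.4 to 36.6 in the ampicillin libraries, and 2 of 2 tested rose against each group. The 12 T cell markers summed to 51.1 to 92.5 TPM against 36.9 to 42.9 and 28.0 to 47.2, and 4 of 10 tested rose against ampicillin. The 12 myeloid markers, 1 of them listed at 0 throughout, summed to 36.5 to 50.5 TPM against 69.9 to 82.9 and 43.3 to 47.3. The lower sum was not shared by all of them. Of 6 tested, 2 fell with tributyrin against vehicle and 0 rose, and their median log2 difference was 0.21. The 25 cell cycle genes summed to 1121 to 1339.6 TPM against 1069 to 1201 and 981 to 1113. With tributyrin 9 of 25 rose against ampicillin (36%) and 4 against vehicle (16%), or 5 and 2 after scaling. Over all genes tested 15.6% were called higher against ampicillin and 19.1% against vehicle, or 10.9% and 11.3% after scaling. The part of these in the ribosomal protein differences was not tested.

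Members with roles of their own were followed in all groups. Rps6, the small subunit protein phosphorylated by S6 kinase below mTORC1, had 1045 ± 86.2, 1071 ± 54.2 and 1159.8 ± 33.6 TPM in the vehicle, ampicillin and tributyrin libraries (SD, n = 3 each). Its log2 difference between tributyrin and ampicillin was 0.12 (adjusted p = 0.253, limma). Rpsa, also known as the laminin receptor precursor, had 2848 ± 367, 2621 ± 93.4 and 2852 ± 151 TPM, and its difference between ampicillin and vehicle was -0.11 (adjusted p = 0.448). Rpl41 stood at 10893, 9332 and 10886 TPM in vehicle libraries 1 to 3, at 9843, 10169.9 and 10870.0 in ampicillin libraries 1 to 3 and at 10805, 10188 and 12275 in tributyrin libraries 1 to 3. Its groups overlapped, with tributyrin library 3 highest and vehicle library 2 lowest, and no comparison passed (adjusted p = 0.971, 0.438 and 0.458). Rps28 had 6079 ± 366, 6859.5 ± 136 and 6759.7 ± 182 TPM, with a difference between ampicillin and vehicle of 0.18 (adjusted p = 0.0590).

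Pairs of paralogs differed in level. Rpl22l1 was above Rpl22, the protein known to bind and repress its mRNA, with a ratio of 3.04 ± 0.166 in vehicle, 3.06 ± 0.272 in ampicillin and 3.26 ± 0.256 in tributyrin libraries (SD, n = 3 each). The levels were 197 ± 9.82 TPM for Rpl22 and 598 ± 55.0 for Rpl22l1 in the vehicle group, and neither passed in a comparison. Rps27l, a p53 target, stood at 624 ± 41.1 TPM in the vehicle group beside 4195 ± 185 for Rps27, a ratio of 0.149 ± 0.00361 there, 0.143 ± 0.00935 with ampicillin and 0.136 ± 0.00142 with tributyrin. Rpl7l1 was at 0.0343 ± 0.00288 of Rpl7 in the vehicle and 0.0353 ± 0.00421 in the tributyrin group, and Rps4l at 0.0245 ± 0.00693 and 0.0199 ± 0.00159 of the X-linked Rps4x. Rpl3l, Rpl10l and Rpl39l, known from muscle and testis, were listed at or near 0. Rpl36a and Rps3a1 passed in no comparison, with log2 differences of -0.053, 0.17 and 0.12 for Rpl36a and 0.080, 0.14 and 0.22 for Rps3a1, in the order of the comparisons above.

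The members varied among themselves in a way that followed the library number as well as the treatment. Over the 81 genes the number explained a median of 29.95% of the sum of squares of log2(TPM + 1) and the group 43.8%, against 12.5% and 59.8% over all genes tested. After scaling these were 42.8% and 18.1% over the 81 and 12.9% and 59.8% over all. The number outweighed the group in 30 of the 81 as deposited and in 54 after scaling, against 20.3% and 20.8% of all genes. Libraries numbered 3 were the lowest of their group in all 3 groups for 14 genes, where the share over all genes was 10.4%, and the highest for 27, where it was 7.49%. After scaling these counts were 13 and 26 (shares over all 8.98% and 10%). This pattern was looked for after the values were seen, is a description with no test, and the labels do not say what a number stands for.

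Rpl31 (chromosome 1, 39367851 to 39371911), a protein of the exit side of the large subunit, was among those low in the libraries numbered 3. It stood at 1105, 1046 and 849 TPM in vehicle libraries 1 to 3, at 1134, 1132 and 876 in ampicillin libraries 1 to 3 and at 1060.0, 1219 and 832 in tributyrin libraries 1 to 3. Library 3 was the lowest of each group, and the groups overlapped. On the log2 scale the mean of the libraries numbered 3 minus the mean of the others was -0.39, and the number explained 90.4% of its sum of squares. Rps20 (chromosome 4, 3831584 to 3835655), which is mutated in a form of hereditary colorectal cancer, went the other way and stood at 221, 194 and 249 TPM in vehicle libraries 1 to 3, at 214, 233 and 273 in ampicillin libraries 1 to 3 and at 237, 225 and 290.0 in tributyrin libraries 1 to 3. Its library 3 was highest in each group, with a mean 0.29 above that of the others, and the number explained 70.0%. Rpl27, Rpl17, Rpl29, Rps4l, Rpl28, Rpl24, Rpl32, Rpl9, Rps19, Rpl7l1, Rpl15 and Rps7 were among those lowest in library 3 of each group, and Rpl14, Rps12, Rpl37a, Rps3a1, Rps9 and Rps3 among those highest.

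**Figure D4:**
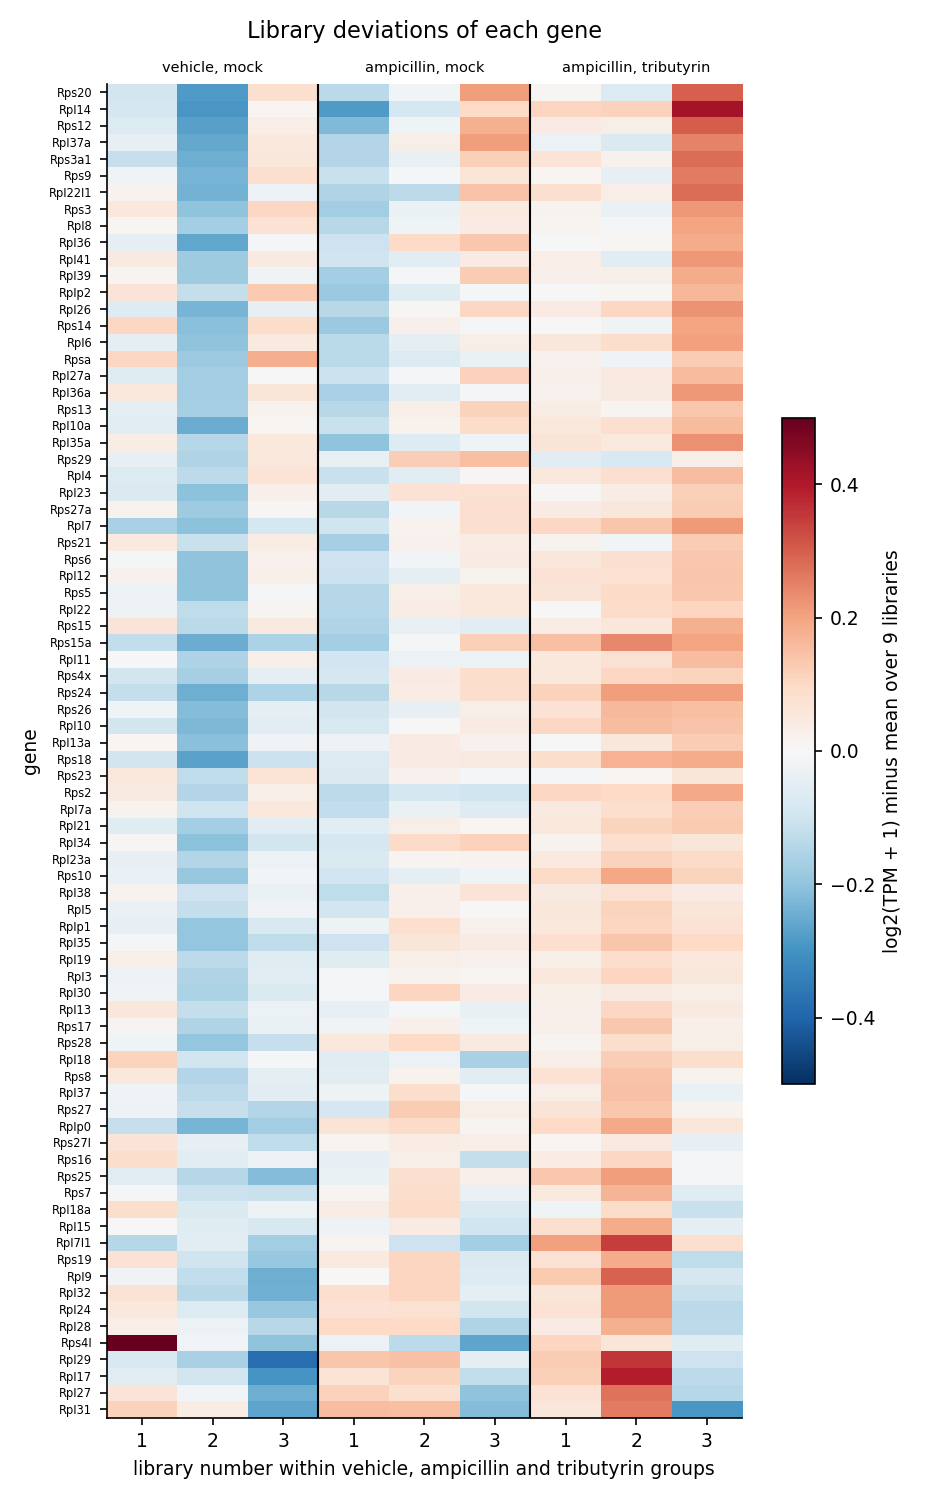
Log2(TPM + 1) of 80 of the 81 genes (rows) minus its mean over the 9 libraries (columns, numbered within vehicle, ampicillin and tributyrin groups), with rows ordered by the deviation of the libraries numbered 3 and colours that end at 0.5 either way. Rows at the top are high and rows at the bottom low in library 3 of each group, and vehicle library 2 is low in most rows.

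Near copies in the table bear on several of these values. Rpl14-ps1, listed as a pseudogene of Rpl14, held 523, 509 and 241 TPM in the vehicle, 646, 523 and 257 in the ampicillin and 417, 541 and 31.3 in the tributyrin libraries, lowest in library 3 of each group. Rpl14 itself stood at 930.4, 805 and 992 TPM in vehicle libraries 1 to 3, at 810.5, 927 and 1057 in ampicillin libraries 1 to 3 and at 1062, 1068 and 1316 in tributyrin libraries 1 to 3, highest in library 3 of each group. Their sum varied 1.30-fold between the highest and the lowest library, against 1.63-fold for Rpl14 and 20.6-fold for the copy. Reads of near-identical copies cannot be told apart with certainty, so the values of Rpl14 are uncertain to that extent. Rpl31-ps12 did not offset Rpl31: it held 284, 289 and 131, 309, 306 and 168 and 284, 394 and 122 TPM in the same order and was lowest in library 3 of each group like Rpl31, and their sum varied 1.69-fold, against 1.47-fold for Rpl31.

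**Figure D5:**
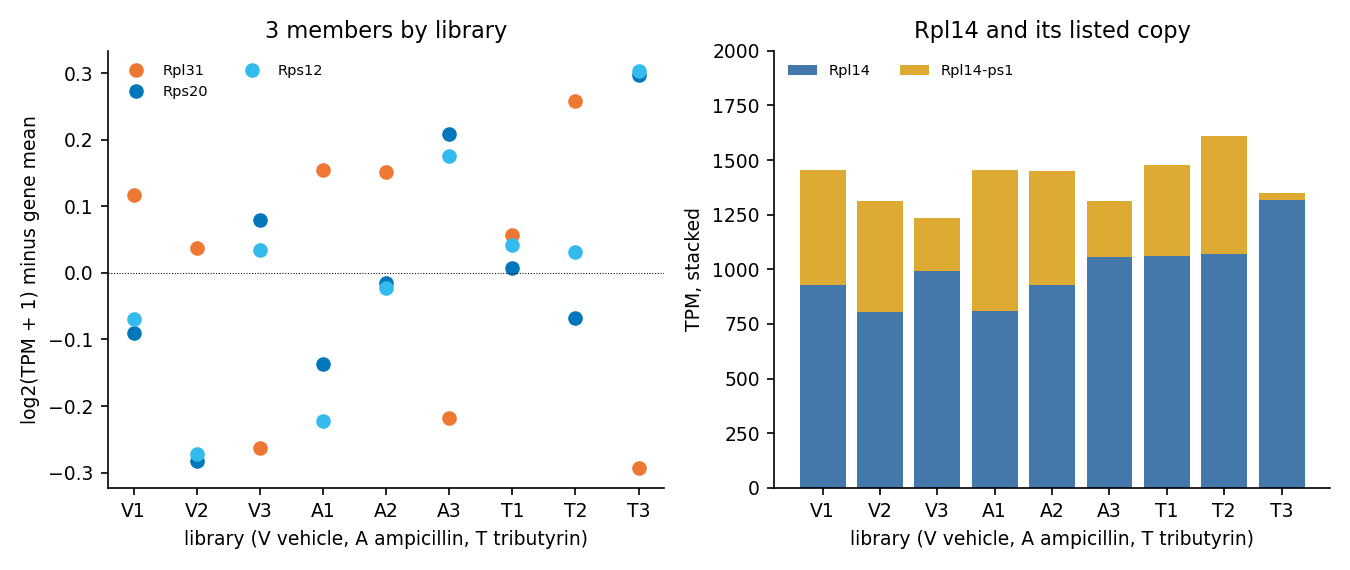
Left, log2(TPM + 1) minus the mean of the gene for Rpl31, Rps20 and Rps12 in each library (V vehicle, A ampicillin, T tributyrin, with the library number). Right, TPM of Rpl14 and of the listed copy Rpl14-ps1, stacked. Rpl31 is lowest and Rps20 and Rps12 are highest in library 3 of each group, and the copy falls to 31.3 TPM in tributyrin library 3, where Rpl14 reaches 1316 TPM.

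Rps15a has near copies in the table, Rps15a-ps4 and Rps15a-ps6, which together held 2.62 ± 0.206, 2.37 ± 0.0133 and 2.52 ± 0.243 times the TPM of Rps15a in the vehicle, ampicillin and tributyrin libraries (SD, n = 3 each). The low level of Rps15a is uncertain for that reason, and the sum of gene and copies had 226 ± 21.1, 235 ± 24.2 and 285 ± 20.5 TPM. Rpl37 and its copy Rpl37rt summed to 754 ± 36.7, 797 ± 35.7 and 809 ± 26.6 TPM. Against vehicle, Rps15a-ps4 rose with tributyrin by a log2 difference of 1.05 (adjusted p = 0.0272, limma), and Rps15a-ps6 differed by 0.12 (adjusted p = 0.249). Rps19-ps3 and Rplp2-ps1 were low, with means of 4.78 and 5.20 TPM. In the same comparison Rps19-ps3 rose by 0.74 (adjusted p = 0.0134), or 0.65 after scaling (adjusted p = 0.0256), while Rplp2-ps1 passed in none. Pairs of copies were picked after the values were seen, and copies under other kinds of symbol were not examined.

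Ribosomal proteins whose symbols the rule does not take were examined apart. Fau, which encodes a small subunit protein fused to a ubiquitin-like one, had 2848 ± 181, 3122 ± 129.7 and 2905 ± 56.5 TPM in the vehicle, ampicillin and tributyrin libraries (SD, n = 3 each) and passed in no comparison. Rack1, a scaffold for signalling on the small subunit, had 1318 ± 62.1, 1321 ± 15.5 and 1491 ± 64.2 TPM and rose with tributyrin against ampicillin by a log2 difference of 0.17 ± 0.052 (SE, adjusted p = 0.0428, limma), which was 0.10 after scaling (adjusted p = 0.263). Rpl36al had 1091 ± 79.4, 1122 ± 12.9 and 1114 ± 28.7 TPM and passed in none.

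The genes around the ribosomal proteins were followed by lists, whose counts stand beside the shares over all genes. Those shares were 11% higher and 10.2% lower with ampicillin, 15.6% and 7.54% with tributyrin against ampicillin, and 19.1% and 9.21% with tributyrin against vehicle. Of 75 genes for ribosomal RNA processing and ribosome assembly, 18 rose (24.0%) and 0 fell with tributyrin against ampicillin. After scaling 10 rose (13.3%, against 10.9% over all genes) and 0 fell (14.2% over all). The median log2 difference was 0.14, or 0.068 after scaling, beside medians over all genes of 0.049 and -0.020. Nop56, a core protein of the particles that methylate ribosomal RNA, had 103 ± 0.810 TPM with ampicillin and 139 ± 9.41 with tributyrin (SD, n = 3 each), a log2 difference of 0.42 (adjusted p = 0.00272, limma). Nop16 went from 24.0 to 33.8 TPM (0.48, adjusted p = 0.00150), Tbl3 from 27.5 to 38.1 (0.46, adjusted p = 0.00102) and Rrp1b from 4.202 to 6.25 (0.46, adjusted p = 0.0240). Between ampicillin and vehicle 4 of the 75 rose (5.33%) and 5 fell (6.67%), and between tributyrin and vehicle 30 rose (40%) and 3 fell (4%). After scaling 17 rose and 5 fell between tributyrin and vehicle (22.7% and 6.67%, against 11.3% and 16.2% over all genes). Utp20 fell in both, from 16.2 TPM with vehicle to 10.4 with ampicillin (log2 difference -0.59, adjusted p = 0.00566) and 8.94 with tributyrin (-0.80, adjusted p = 0.00151).

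Of 20 genes for transcription by RNA polymerase I, which makes ribosomal RNA, 0 rose with ampicillin, 2 with tributyrin against ampicillin and 7 with tributyrin against vehicle, where 1 fell. These are 10.0% against 15.6% over all genes, and 35.0% against 19.1%. After scaling 2 rose and 1 fell with tributyrin against ampicillin (10% and 5%, with 10.9% and 14.2% over all genes). Against vehicle 3 rose and 1 fell after scaling (15% and 5%, with 11.3% and 16.2% over all genes). Both that rose with tributyrin against ampicillin, Taf1b and Polr1e, were at low levels, from 5.74 to 9.45 TPM for Taf1b (log2 difference 0.63, adjusted p = 0.00153) and from 5.90 to 8.05 for Polr1e (0.39, adjusted p = 0.00481). Among 32 genes of mTORC1 and MYC control, 4 rose and 4 fell with ampicillin (12.5% each, against 11% and 10.2% over all genes). With tributyrin against ampicillin 4 rose and 3 fell (12.5% and 9.38%, against 15.6% and 7.54%). After scaling these were 4 and 8 (12.5% and 25%, against 10.9% and 14.2%). With tributyrin against vehicle 5 rose and 3 fell (15.6% and 9.38%, against 19.1% and 9.21%), or 4 and 7 after scaling (11.3% and 16.2% over all). As deposited, these shares were near those over all genes. Myc, the transcription factor known to drive ribosome production, stood at 32.4, 29.2 and 31.5 TPM in vehicle libraries 1 to 3, at 33.3, 32.3 and 31.2 in ampicillin libraries 1 to 3 and at 51.3, 62.4 and 43.8 in tributyrin libraries 1 to 3. The tributyrin libraries were above all others. Its log2 difference between tributyrin and ampicillin was 0.67 ± 0.11 (SE, adjusted p = 0.00443, limma), and 0.59 after scaling (adjusted p = 0.00427). Eif4ebp1, the inhibitor of cap-dependent translation that mTORC1 switches off, rose with ampicillin from 27.7 ± 1.60 to 42.5 ± 1.73 TPM (SD, n = 3 each), a log2 difference of 0.60 (adjusted p = 0.000316). Rptor, a subunit of mTORC1, fell from 21.2 to 15.3 TPM (-0.45, adjusted p = 0.00361), and Mxd1, an antagonist of MYC, from 84.7 to 67.0 (-0.34, adjusted p = 0.0353).

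Elongation factors and other mRNAs known for the terminal tract were called in each comparison. Of 26 listed, 5 rose and 2 fell with ampicillin, 5 rose and 0 fell with tributyrin against ampicillin, and 12 rose and 0 fell with tributyrin against vehicle. These are 19.2%, 19.2% and 46.2% higher, against 11%, 15.6% and 19.1% over all genes. After scaling these counts were 5 and 2, 2 and 1, and 2 and 1. The scaled shares higher were 19.2%, 7.69% and 7.69%, against 10.2%, 10.9% and 11.3% over all genes. The scaled shares lower were 7.69%, 3.85% and 3.85%, against 11.7%, 14.2% and 16.2%. Tpt1, the translationally controlled tumour protein, rose with ampicillin from 2753 ± 70.6 to 3512 ± 101 TPM (SD, n = 3 each), a log2 difference of 0.35 (adjusted p = 0.00273, limma). The elongation factor Eef2 rose from 1473 ± 167 to 2010.0 ± 103 TPM (0.45, adjusted p = 0.0476) and Ybx1, an mRNA-packaging protein, from 449 ± 39.7 to 580.1 ± 35.6 (0.37, adjusted p = 0.0129). Nap1l1, a histone chaperone, fell with ampicillin (-0.31, adjusted p = 0.00168) and rose with tributyrin against ampicillin (0.48, adjusted p = 0.000509), in comparisons that share the ampicillin libraries.

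Of 35 initiation factors, 3 rose and 2 fell with ampicillin, 7 rose and 0 fell with tributyrin against ampicillin, and 10 rose and 1 fell with tributyrin against vehicle. These are 8.57%, 20% and 28.6% higher, beside the same 11%, 15.6% and 19.1% over all genes. After scaling the counts with tributyrin were 3 and 3 against ampicillin (8.57% each, with 10.9% and 14.2% over all genes). Against vehicle they were 6 and 3 (17.1% and 8.57%, with 11.3% and 16.2% over all genes). Eif2s2, a subunit of the factor that brings the initiator tRNA, rose with ampicillin from 134 ± 11.6 to 222 ± 7.54 TPM (SD, n = 3 each), a log2 difference of 0.72 (adjusted p = 0.000165, limma). Proteins of the mitochondrial ribosome, 78 in number, went both ways: 8 rose and 3 fell with ampicillin, 9 and 7 with tributyrin against ampicillin, and 14 and 11 with tributyrin against vehicle. The shares higher were 10.3%, 11.5% and 17.9% and the shares lower 3.85%, 8.97% and 14.1%. After scaling 4 were higher and 15 lower with tributyrin against vehicle (11.3% and 16.2% over all genes). With tributyrin against ampicillin 4 were then higher and 18 lower (5.13% and 23.1%, against 10.9% and 14.2% over all genes). The scaled median log2 difference was -0.020 over all genes, 0.020 for the cytosolic genes and -0.094 for these mitochondrial ones. Their summed level was 0.987 ± 0.0366%, 1.02 ± 0.0111% and 1.03 ± 0.0161% of TPM in the vehicle, ampicillin and tributyrin libraries (SD, n = 3 each). The difference in response between these lists and the ribosomal protein genes was not tested.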

How the data were processed

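RNA of caecal epithelial cells was measured in 9 libraries, 3 each of vehicle, ampicillin and tributyrin groups, with groups and numbers taken from the sample titles. The 7 chromatin and input samples were not analysed here. The authors deposited 1 table of gene TPM with a column per library. Salmon 0.8.2, DESeq2 1.20.0 and build mm10 are named, without their roles, per the submitters' processing notes. Index, strand and filters were not given in the sources used here. TPM keeps no depth, so no counting interval could be given and the spread of 3 libraries sets the precision. All value columns matched a sample (0 left over).

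Values were taken as log2(TPM + 1), with a pseudocount of 1, for genes with a mean TPM of at least 1 (12155 of 24091). Fold changes on this scale understate those of low genes. The 3 group means were estimated together with limma 3.58.1 (R 4.3.3; 9 libraries, 6 residual degrees of freedom, variance trend, no block), with Benjamini-Hochberg adjustment over all genes tested and a two-sided threshold of 0.05. With 3 libraries a group, no exact two-sided permutation p can be lower than 0.1. Median-of-ratios scaling used 15457 genes above 0 in every library. The fit was checked on simulated data. Gene IDs were matched to RefSeq GRCm38.p6 (24045 of 24091, and all 81 members). By the gene type in RefSeq or by symbol, 1199 entries were taken as short RNA. Python 3.11.15 with matplotlib 3.10.9 made the figures.

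The members and the gene lists were chosen with earlier results of these data known. Members named are, for each comparison, up to 6 highest and 6 lowest called, the 5 highest levels, those next to the level threshold, paralog pairs, the stalk genes, Rpsa, Rps6 and Rpl41. Up to 4 called genes of each other list could be named, and some that could are left out for space. Others named were chosen after their values were seen. Some genes, and a summed level that needs one of them, are not reported here. Alternatives covered scaling, pseudocount, filters, weights, the libraries fitted, the replicate block and each library left out.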

Additional observations from a re-analysis of the deposited data

How the results depend on the processing

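The counts of ribosomal protein genes called higher moved with the processing. In the order ampicillin against vehicle, tributyrin against ampicillin and tributyrin against vehicle, the counts were 1, 3 and 16 as reported, 1, 0 and 4 with median-of-ratios scaling, 0, 1 and 8 with no filter on low values, 0, 0 and 5 with the libraries numbered 1 and 2 alone (chosen after seeing the data), and from 0 to 2, 0 to 4 and 7 to 13 with 1 library left out. Array weights gave 4 and 5 and quantile normalization 3 and 8 in the first and second comparisons, a filter at a mean TPM of 10 gave 2 in the first, and fitting the 6 libraries compared gave 7 in the third. None was called lower, except 6 in the first comparison under quantile normalization and from 0 to 1 with 1 library left out. With the replicate block the counts were 3, 5 and 21 (over all genes 11.3%, 16.3% and 19.3%), and with block and scaling together (added after seeing the data) 2, 1 and 5. Shares over all genes are given only for the fit reported, for scaling and for the block. The counts of the other settings therefore cannot be set against all genes. The numbers do not pair the samples by the rule used, for which the group mean of each gene was first subtracted. These deviations, not the levels, correlated between same-numbered libraries at -0.050 to 0.11 over all genes, 1 of 9 pairs above 0.1. Over the 81 members they correlated at 0.54 to 0.91. Deviations of different-numbered libraries correlated over the members at -0.91 to 0.81, 6 of 18 pairs above 0.1. Deviations within a group sum to 0, so negative values here are in part forced by positive ones between same-numbered libraries. By their deviations 8 of 9 libraries correlated best with one of their own number (6 of 9 over all genes), a hint from the data and not the design. Among those called with the block and not in the fit reported were Rpl29 in the first comparison (adjusted p = 0.0274, limma), Rpl14 in the second (0.0293) and Rps3a1 in the third (0.0212). Scaling, with or without the block, moved the median log2 difference to 0.020 in the second and 0.035 in the third comparison. The summed share moved to 17.1% (ampicillin) and 17.9% (tributyrin) without short RNA, and to 16.9% and 17.9% with Fau, Rack1 and Rpl36al added (chosen after seeing the data). After scaling the sum for tributyrin was 16.6% of the nominal library total. Single named members kept their side of the threshold in 1588 of the values recomputed, lost it in 107, gained it in 21 and reversed in 0. The cause of these shifts was not tested.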
